A study of Mus musculus with 21 samples.

Results

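Imprinted genes were followed across 7 groups of C3H/10T1/2 cells that differ in the histone H2B they carry. The set holds 38 genes, named by symbol from textbook knowledge of imprinting, and each symbol was found as its own row of the 24091 genes in the deposited expression table. By what is known of each gene, 15 are expressed mainly from the maternal copy and 23 mainly from the paternal copy. They lie in 18 imprinted domains or single loci on 10 chromosomes, and chromosome 7 carries 15 of them. C3H/10T1/2 is an established line of mesenchymal progenitor cells from mouse embryo, bought from ATCC and grown in DMEM with fetal bovine serum. All 7 groups are this line and differ, per the labels, only in the H2B genotype: wild-type H2B (WT), or H2B with the glutamate E71, E76 or E113 replaced by lysine (E71K, E76K, E113K) or by glutamine (E71Q, E76Q, E113Q). Glutamate is negatively charged, lysine is positively charged and glutamine is neutral. Each group has 3 RNA-seq libraries, 21 in all, given as TPM (an abundance corrected for transcript length and scaled to a fixed sum per library). The labels do not give how the H2B forms were introduced, how much of the cells' H2B they make up, or whether a genotype is 1 clone. A difference between cell lines and an effect of the substitution therefore cannot be told apart.

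Genomic imprinting marks certain genes by parent of origin, so that in many tissues a gene is read mainly from the copy that came from the mother or mainly from the copy that came from the father. The mark is DNA methylation set in the germ line at imprinting control regions, and it is kept through the early embryo by ZFP57, TRIM28 and the maintenance methyltransferase DNMT1. Genes of a domain share a control region and often hold an expressed noncoding RNA on the chromosome where the protein genes are silent. Many imprinted genes act on growth: paternally expressed genes such as Igf2 tend to promote it, and maternally expressed genes such as Grb10, Igf2r and Cdkn1c tend to restrain it. The values here are total RNA levels with no information on alleles, so neither the parental origin of a transcript nor a loss of imprinting can be read from them.

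The number of reads behind a TPM value is not kept, so depth is unknown and no counting interval or detection limit can be given. The series describes the 3 libraries of a group as independent biological replicates without saying that they came from separate cultures, so the spread that the p-values measure is that of these libraries and may be technical. A locus annotated as the microRNA Mir6236 took 2.19% to 30.6% of a library's TPM, the most in E71K replicate 2 and next, at 21.2%, in E71Q replicate 1. Of the 15 imprinted genes that were tested, 14 had their lowest value of the group in E71K replicate 2 and 14 had their highest in E71K replicate 3, 11 had their lowest in E71Q replicate 1, and 12 had their highest in E76K replicate 3. The part of these differences between libraries in the results was not tested beyond the fits without them that are given beside the counts. Markers of the labelled cell type were present: all 12 mesenchymal markers averaged 1 TPM or more, and their sum ran from 9341 to 15513 TPM. Thy1, however, was at or near 0 in E71K, E71Q and E76Q, with no library above 1.24 TPM, against 66, 65.5 and 66.4 TPM in WT. Of the markers of other cell types, Pou5f1, Cdx2 and Cldn4 were listed at 0 in every library, but other members of the lists were not. Summed over 5 blood and macrophage markers, 2 of them at a mean of 1 TPM or more, the level was 8.09 to 22.7 TPM. The sums ran to 8.59 TPM for 5 skeletal muscle markers and 3.89 TPM for 5 endothelial markers. They ran to 17.2 TPM for 5 trophoblast markers and 1.03 TPM for 6 pluripotent and germ markers. The summed level of 6 epithelial markers was 10.6 to 12.4 TPM in WT and 0.622 to 4.33 TPM in the mutants, with 2 of the 6 at a mean of 1 TPM, and that of 6 neuronal markers, again with 2 at that mean, was 11.8 to 12.2 TPM in WT and 5.78 to 44.96 TPM in the mutants. The part of these lists in the results was not tested.

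Most of the set was low, with 23 of the 38 genes below a mean of 1 TPM. Testing asked for an average of 1 TPM or more across the 21 libraries, which 15 of the 38 genes reached. So did 12192 of all 24091 genes. Of the 15, 6 are maternally and 9 paternally expressed. There were 10 genes at 1 TPM or more in every library, and 7 of them were at 10 TPM or more throughout. Of the 23 genes below the mean of 1 TPM, 16 had no library at 1 TPM, and 11 of these had none at 0.5 TPM. The 7 others reached 1 TPM in at least 1 library, and 2 of them, Peg3 and Asb4, were expressed in WT cells and almost nowhere else. Sgce, Kcnq1ot1 and Ndn reached the mean of 1 TPM only through the group in which each was highest, so a difference between groups was built into their selection. Their values below, and those of genes under that mean, come from a second limma fit of all genes without this filter, adjusted over all of them. Kcnq1ot1 is given from both fits, and the counts of calls are those of the filtered fit.

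**Figure D1:**
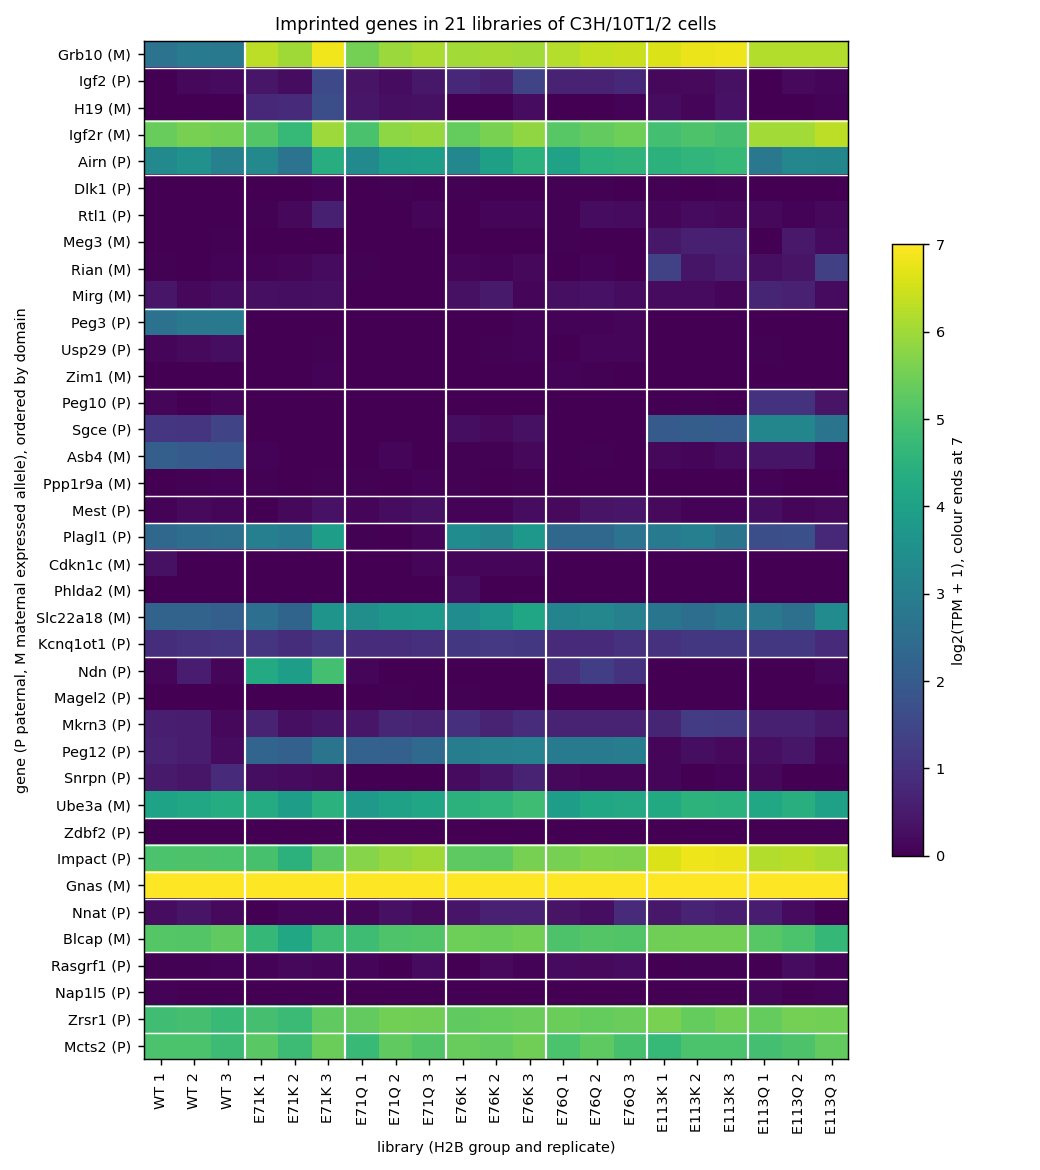
Heat map of the 38 imprinted genes (rows, ordered by domain, with M for maternal and P for paternal expression) in the 21 libraries (columns, 3 per H2B group), coloured by log2(TPM + 1) with the colour scale ending at 7. Grb10 is darkest in the 3 WT libraries, Peg3 and Asb4 stand out only there, Ndn is bright in E71K alone, and the Dlk1-Dio3 genes stay dark in every column.

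Promoter sequences are shown for 5 genes with large differences between groups, so that the regions behind them can be read. They are RefSeq windows on GRCm38.p6 (the mm10 assembly) of 300 bases, 250 before to 50 after an annotated start, on the strand of the gene, in lower case with each CG dinucleotide in capitals, since methylation at CG carries the imprint. Grb10 has an upstream start at chr11:12037371-12037670 (minus strand) in a CG-rich window and a second start at chr11:12027922-12028221 (minus strand). Ndn at chr7:62348027-62348326 (plus strand) and Peg12 at chr7:62464461-62464760 (minus strand) are neighbours in 1 domain. Plagl1 lies at chr10:13090582-13090881 (plus strand) and Peg3 at chr7:6730370-6730669 (minus strand).
Grb10, upstream start: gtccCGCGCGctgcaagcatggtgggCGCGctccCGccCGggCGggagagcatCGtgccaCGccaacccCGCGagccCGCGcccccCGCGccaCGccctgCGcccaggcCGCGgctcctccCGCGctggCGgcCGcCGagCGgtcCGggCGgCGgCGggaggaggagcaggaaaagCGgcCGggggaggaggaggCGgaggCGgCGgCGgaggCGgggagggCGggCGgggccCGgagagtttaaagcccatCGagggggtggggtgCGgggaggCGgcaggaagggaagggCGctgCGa
Grb10, second start: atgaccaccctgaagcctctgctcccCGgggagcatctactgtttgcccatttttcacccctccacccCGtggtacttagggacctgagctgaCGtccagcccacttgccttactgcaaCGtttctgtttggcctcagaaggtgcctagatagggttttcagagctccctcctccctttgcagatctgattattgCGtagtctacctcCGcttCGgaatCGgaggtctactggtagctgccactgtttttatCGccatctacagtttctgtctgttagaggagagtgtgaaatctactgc
Ndn: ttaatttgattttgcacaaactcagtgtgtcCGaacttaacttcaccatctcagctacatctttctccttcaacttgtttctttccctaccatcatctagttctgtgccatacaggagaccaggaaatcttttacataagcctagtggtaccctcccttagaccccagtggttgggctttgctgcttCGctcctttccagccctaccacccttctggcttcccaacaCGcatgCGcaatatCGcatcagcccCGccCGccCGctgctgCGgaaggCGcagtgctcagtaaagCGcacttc
Peg12: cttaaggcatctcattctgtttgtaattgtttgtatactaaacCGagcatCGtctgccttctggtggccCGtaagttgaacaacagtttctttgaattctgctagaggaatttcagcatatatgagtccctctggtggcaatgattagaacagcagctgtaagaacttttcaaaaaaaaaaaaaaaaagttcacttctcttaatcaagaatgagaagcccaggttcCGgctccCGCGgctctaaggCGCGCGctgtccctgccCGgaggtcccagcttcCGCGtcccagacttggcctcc
Plagl1: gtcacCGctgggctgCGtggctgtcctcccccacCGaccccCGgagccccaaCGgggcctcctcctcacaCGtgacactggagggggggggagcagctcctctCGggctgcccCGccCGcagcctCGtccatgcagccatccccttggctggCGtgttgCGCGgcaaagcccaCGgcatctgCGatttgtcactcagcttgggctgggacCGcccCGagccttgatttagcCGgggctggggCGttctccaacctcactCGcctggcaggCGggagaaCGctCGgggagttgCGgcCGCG
Peg3: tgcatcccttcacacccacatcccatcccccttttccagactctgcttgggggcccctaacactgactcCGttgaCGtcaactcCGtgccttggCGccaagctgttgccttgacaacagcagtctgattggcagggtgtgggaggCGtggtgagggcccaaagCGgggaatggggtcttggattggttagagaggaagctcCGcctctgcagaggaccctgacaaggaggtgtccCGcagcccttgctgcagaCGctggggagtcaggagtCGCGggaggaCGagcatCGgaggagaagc
The upstream Grb10 window holds 45 CG dinucleotides against 9 in the second, and the Plagl1 window holds 26, Peg3 13, Peg12 12 and Ndn 11. RefSeq windows were found for 32 of the 38 genes, 48 windows in all, with a median of 13.5 CG against 7 over all 32851 promoter windows of the same length. The hexamer TGCCGC, searched on both strands, is the core of the site that ZFP57 binds when its CG is methylated, and its own CG is among those counted. It was found in 12 of the 48 windows, of 11 genes, Grb10 (upstream start), Plagl1, Mest, Nnat, Nap1l5, Zdbf2, Snrpn, Meg3, Igf2, Mcts2 and Zim1, and in 11.6% of all windows. Some of the 48 windows overlap, such as that of Peg3 with that of Usp29, which is read in the opposite direction. The windows of Mest at chr6:30737800-30738099 and chr6:30737803-30738102 overlap as well. Both hold the hexamer and both are among the 12. The hexamer holds a CG and the windows of the set hold more CG, so the 12 of 48 and the 11.6% are not like for like. The TPM values are per gene and do not say which start was used.

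Grb10 rose in all 6 mutants. It encodes an adaptor that binds the activated insulin and IGF receptors and restrains their signal, and outside neurons it is expressed from the maternal copy. It lies at chr11:11930499-12037428 (GRCm38). WT libraries held 5.33, 6.24 and 6.10 TPM. The E71K libraries held 77.4, 62.7 and 115 TPM, and the E71Q libraries 45.3, 60.5 and 67.8 TPM. Every one of these was above every WT library, and E71K replicate 3 was the highest of all 21. The E76K libraries held 64.9, 67.2 and 64.9 TPM and the E76Q libraries 73.2, 82 and 85.5 TPM. The E113K libraries held 98.4, 109 and 113.005 TPM and the E113Q libraries 71.9, 72.4 and 72.7 TPM. No mutant library lay below 45.3 TPM and no WT library above 6.24 TPM. In bulk RNA, more transcript per cell and more cells with the transcript cannot be told apart, here and below.

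On the log2(TPM + 1) scale, which understates the change of low genes, Grb10 exceeded WT by 3.60 ± 0.17 (SE) for E71K and 3.08 ± 0.17 for E71Q, by 3.28 ± 0.17 for E76K and 3.56 ± 0.17 for E76Q, and by 3.97 ± 0.17 for E113K and 3.41 ± 0.17 for E113Q. The adjusted p (limma, Benjamini-Hochberg over all genes tested) lay between 7.03e-12 in E113K and 1.56e-10 in E71Q. The 6 comparisons share the 3 WT libraries, so they are not independent. Among the mutants Grb10 was higher with lysine than with glutamine at E113 by 0.55 ± 0.17 (adjusted p = 0.0207) and at E71 by 0.52 ± 0.17 (adjusted p = 0.0322), and the difference at E76 was -0.28 ± 0.17 (adjusted p = 0.215). The call at E71 was lost without E71K replicate 1 (0.56, adjusted p = 0.0579), E71K replicate 3 (0.28, adjusted p = 0.118), E71Q replicate 1 (0.36, adjusted p = 0.126) or E71Q replicate 2 (0.56, adjusted p = 0.0618), and in a fit of only these 6 libraries (0.52, adjusted p = 0.352). Without E71K replicate 3, E71Q replicate 1, E76K replicate 3 and E113Q replicate 3 together, the difference at E71 was 0.12 (adjusted p = 0.405). The call at E113 was lost without E113K replicate 2 (adjusted p = 0.0617), E113K replicate 3 (0.0744), E113Q replicate 1 (0.0548) or E113Q replicate 2 (0.0525). The only gene tested within 1 Mb of Grb10, Fignl1, did not rise in any mutant and fell in 5 of them, all but E71K.

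**Figure D2:**
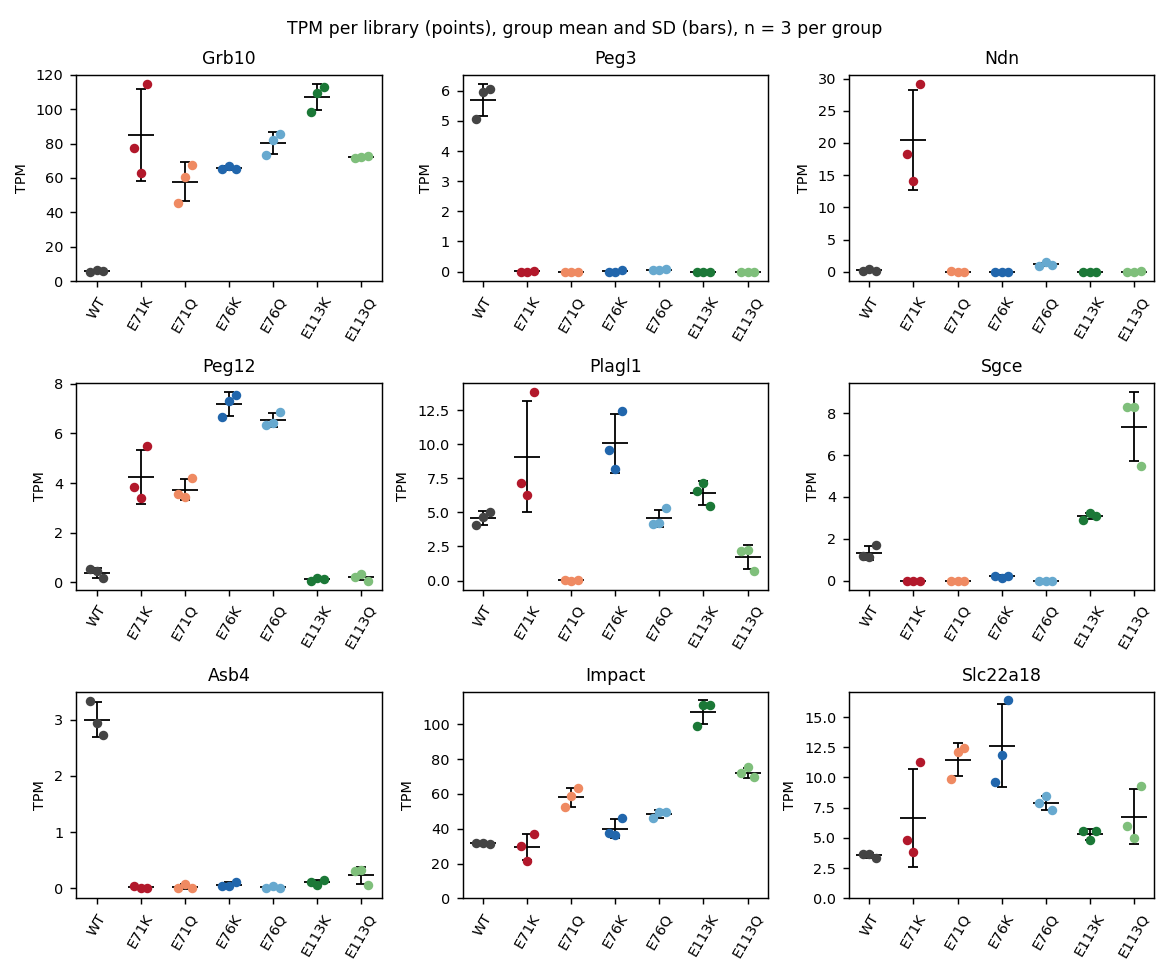
TPM of 9 imprinted genes in each library (points), with the mean and SD of the 3 libraries of each H2B group (bars). Grb10 lies below 7 TPM in WT and above 45 TPM in every mutant library, Peg3 and Asb4 are above 1 TPM only in WT, Ndn is high in E71K, and Peg12 is high in the 4 groups with a change at E71 or E76.

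The imprinted ligand IGF2, its binding receptor and the noncoding RNAs of their domains are taken next. Igf2, the paternally expressed fetal growth factor, stayed low, at 0 to 1.90 TPM over the 21 libraries, with the 2 highest values in E71K replicate 3 and E76K replicate 3. H19, the maternally expressed noncoding RNA of the same domain, was at 0 in every WT library and held 0.761, 0.825 and 2.19 TPM in E71K and 0.349, 0.225 and 0.241 TPM in E71Q. The other groups held no H19 value above 0.267 TPM. Both genes had means under 1 TPM. In the fit without a filter, H19 exceeded WT in E71K by 1.12 ± 0.15 (adjusted p = 3.11e-05) and E71K exceeded E71Q by 0.77 ± 0.15 (adjusted p = 0.00249). Igf2 passed there in E76K alone (0.84 ± 0.24, adjusted p = 0.0189).

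Igf2r, the maternally expressed receptor that binds IGF2 and carries it to the lysosome, overlaps the start of Airn, the paternally expressed noncoding RNA that runs antisense to it. Igf2r lies at chr17:12682406-12769706 and Airn at chr17:12741311-12859884. Whether the libraries or the counting kept the strand is not given, so reads in the overlap could be shared between them. In WT, Igf2r stood at 40.4, 46 and 44.9 TPM and Airn at 9.01, 10.6 and 7.31 TPM. In E113K, Igf2r stood at 29, 31.8 and 29.9 TPM and Airn at 21.4, 23.3 and 24.6 TPM. In E113Q the order was the other way, with Igf2r at 64.5, 64 and 78 TPM and Airn at 5.92, 8.49 and 8.29 TPM. The E113K and E113Q libraries did not overlap in either gene.

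Between E113K and E113Q, Igf2r was lower in E113K, with a log2 difference of -1.16 ± 0.26 (adjusted p = 0.00285) and Airn was higher by 1.51 ± 0.34 (adjusted p = 0.00307). Against WT, Airn rose in E113K by 1.28 ± 0.34 (adjusted p = 0.00434) and in E76Q by 1.05 ± 0.34 (adjusted p = 0.0178), where its libraries held 15.4, 21.3 and 22.4 TPM. The E76Q call was lost when WT replicate 3 (adjusted p = 0.0697), E76Q replicate 2 (0.0556) or E76Q replicate 3 (0.0623) was left out. Igf2r passed the threshold against WT in no mutant: its differences were -0.52 ± 0.26 in E113K (adjusted p = 0.0993) and 0.64 ± 0.26 in E113Q (adjusted p = 0.0679). With a median-ratio rescaling of the libraries both passed, at -0.65 (adjusted p = 0.00589) and 0.57 (adjusted p = 0.0184). In the other mutants Igf2r ran from 24.7 to 61.7 TPM in E71K, 30.6 to 57.9 in E71Q, 40 to 55.7 in E76K and 35.5 to 42.8 in E76Q, all around the WT range. Airn ran from 5.39 to 19.4 TPM in E71K, 9.05 to 14 in E71Q and 8.65 to 21.4 in E76K.

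The ratio of Airn to Igf2r within a library, which does not depend on the total of the library, had a mean of 0.206 ± 0.0375 (SD, n = 3) in WT. It was 0.264 in E71K, 0.260 in E71Q and 0.304 in E76K. It was higher in E76Q, at 0.503 ± 0.0612, and highest in E113K, at 0.765 ± 0.0509, with libraries between 0.734 and 0.824. In E113Q it was lowest, at 0.110 ± 0.0207, with libraries between 0.0917 and 0.133.

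**Figure D3:**
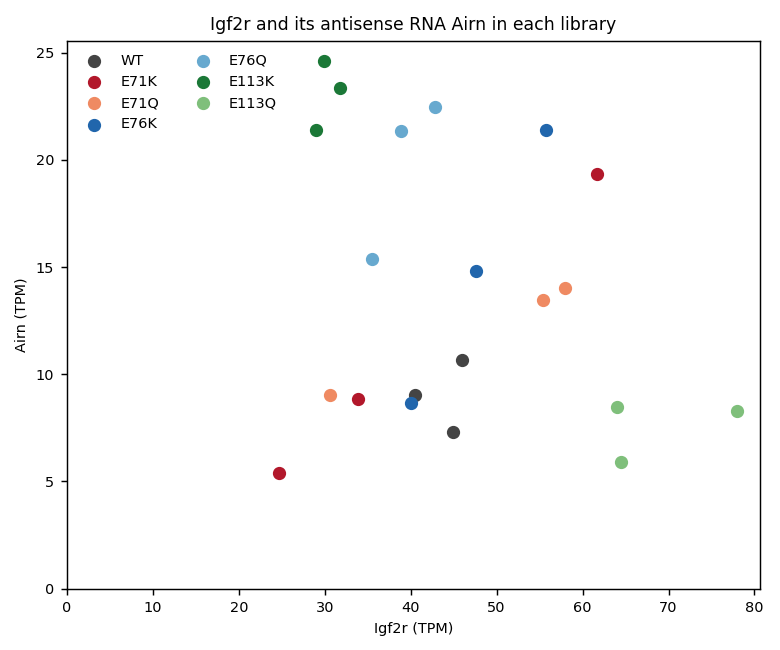
Airn against Igf2r in TPM, 1 point per library, coloured by H2B group, both axes from 0. The E113K libraries lie at 29.0 to 31.8 TPM of Igf2r and 21.4 to 24.6 TPM of Airn, and the E113Q libraries at 64.0 to 78.0 TPM of Igf2r and 5.92 to 8.49 TPM of Airn.

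Other genes that act with IGF2, IGF receptors or GRB10 were taken from a list of 10, of which 9 were tested. In E71K 1 rose and 3 fell, in E71Q 2 rose and 6 fell, in E76K 1 and 4, in E76Q 1 and 5, in E113K 4 and 3, and in E113Q 2 and 4. Of all genes tested, 26.7%, 44.2%, 33.2%, 44.3%, 51% and 30.6% were called in these mutants, in that order. The list was not tested as a set. The median log2 fold change of the 9 was -0.57 in E71Q and -0.04 in E113K, the extremes over the 6 mutants. Over all genes tested it was 0 and 0.13. Igf2bp3, which binds Igf2 mRNA, fell in all 6 mutants, the most in E71Q, from 29.3 ± 0.959 to 0.334 ± 0.136 TPM (log2 fold change -4.51 ± 0.12, adjusted p = 1.09e-14). Igf1, the other ligand of the IGF1 receptor, rose in E76K from 0.262 ± 0.0623 to 23.7 ± 5.88 TPM (4.27 ± 0.56, adjusted p = 1.55e-05), and also in E113K, E113Q and E71Q. Grb14, a relative of Grb10 that binds the insulin receptor, fell in every mutant but E76Q, the most in E71K, from 4.83 ± 0.435 to 0.117 ± 0.108 TPM (-2.39 ± 0.21, adjusted p = 9.11e-08). Irs1, a substrate of the insulin and IGF1 receptors, rose in E71Q from 14.8 ± 1.04 to 62.2 ± 21.9 TPM (1.93 ± 0.23, adjusted p = 3.08e-06), and also in E71K, E76Q and E113K. Igf1r and Insr, the genes of the receptors that GRB10 binds, are given besides, a choice made with their values seen. Igf1r averaged 16 ± 1.22 TPM in WT and fell in E71Q, E76K and E76Q, the most in E76K, to 9.61 ± 0.902 TPM (-0.68 ± 0.13, adjusted p = 0.000571). Insr averaged 5.93 ± 0.459 TPM in WT and rose in E113K, to 10.3 ± 0.511 TPM (0.70 ± 0.16, adjusted p = 0.00168), and in E113Q, to 8.66 ± 0.949 TPM (0.48 ± 0.16, adjusted p = 0.0327).

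In the Snrpn domain of chromosome 7, the mouse counterpart of the region affected in Prader-Willi and Angelman syndromes, 2 paternally expressed neighbours moved in different groups. Ndn encodes necdin, a MAGE family protein that restrains cell proliferation. The E71K libraries held 18.3, 14 and 29.2 TPM of Ndn, while WT held 0.0588, 0.480 and 0.0881 TPM. E76Q held 0.954, 1.47 and 1.02 TPM. Ndn was listed at 0 in every library of E76K and E113K and did not exceed 0.0633 TPM in E71Q or E113Q. Every E71K library was thus above every other library of the study, and the E76Q libraries came next.

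Ndn had a mean of 0.233 TPM outside E71K, so it entered the filtered fit through that group. In the fit without a filter it exceeded WT by 4.11 ± 0.18 in E71K on the log2(TPM + 1) scale (adjusted p = 3.08e-11) and by 0.84 ± 0.18 in E76Q (adjusted p = 0.00192), and E71K exceeded E71Q by 4.33 ± 0.18 (adjusted p = 8.51e-11). The E76Q call was lost with a pseudocount of 5 (log2 fold change 0.24, adjusted p = 0.147).

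Peg12, which encodes a FRAT family protein of the Wnt pathway and ends 112 kb beyond Ndn, rose with both substitutions at E71 and E76. WT held 0.554, 0.451 and 0.156 TPM. E71K held 3.85, 3.39 and 5.48 TPM and E71Q 3.57, 3.44 and 4.21 TPM. E76K held 6.66, 7.32 and 7.56 TPM and E76Q 6.33, 6.42 and 6.85 TPM. The 12 libraries with a change at E71 or E76 all lay above the 9 others. E113K held 0.0722, 0.191 and 0.136 TPM and E113Q 0.224, 0.349 and 0.0720 TPM, which overlapped WT. The rises were 1.91 ± 0.16 and 1.78 ± 0.16 for E71K and E71Q, and 2.57 ± 0.16 and 2.45 ± 0.16 for E76K and E76Q (adjusted p from 7.45e-10 to 7.91e-08). The differences in E113K and E113Q were -0.28 ± 0.16 and -0.19 ± 0.16 (adjusted p = 0.144 and 0.394). Lysine and glutamine did not differ past the threshold at any of the 3 residues (adjusted p from 0.58 to 0.69).

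Of the remaining genes of the Snrpn domain, Ube3a was well above the others. Mkrn3, a makorin RING finger gene, lay at 0.108 to 1.35 TPM over all libraries, highest in E113K replicate 2. Magel2, a MAGE family gene, never exceeded 0.0259 TPM. Snrpn, which gives the domain its name, was at 0.421, 0.343 and 0.831 TPM in WT and was listed at 0 in all E71Q libraries. Fitted without a filter, Snrpn was below WT in every mutant but E76K (adjusted p from 0.000397 to 0.0138), and Mkrn3 was above it in E113K (0.62 ± 0.15, adjusted p = 0.00311) and E76K (0.42 ± 0.15, adjusted p = 0.0441). Ube3a, the ubiquitin ligase that is maternally expressed in neurons and expressed from both copies elsewhere, ran from 12.6 to 27.3 TPM. In E76K Ube3a held 21.7, 23.5 and 27.3 TPM against 15.6, 17 and 19.3 TPM in WT (0.46 ± 0.15, adjusted p = 0.0278) and 14.3, 17 and 17.7 TPM in E76Q (0.54 ± 0.15, adjusted p = 0.0121). The call against WT was lost without WT replicate 1 (adjusted p = 0.112), WT replicate 2 (0.072), E76K replicate 2 (0.0538) or E76K replicate 3 (0.126). The call against E76Q was lost without E76K replicate 3 (0.0528) or E76Q replicate 1 (0.0644). In the other groups Ube3a lay at 14.1 to 21 TPM in E71K, 12.6 to 16.7 in E71Q, 17.9 to 21.8 in E113K and 14.9 to 19.8 in E113Q.

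Peg3 was expressed in WT cells and was at or near 0 in every mutant library. It encodes a large zinc finger protein, is paternally expressed and lies at chr7:6703892-6730462. The WT libraries held 5.08, 5.95 and 6.05 TPM. It was listed at 0 in all libraries of E71Q, E113K and E113Q and in 2 of 3 of E71K and E76K, and the highest mutant value was 0.0711 TPM, in E76Q replicate 3. The antisense RNA Peg3os held 2.28, 1.36 and 1.97 TPM in WT and at most 0.132 TPM in a mutant library, but strand was not given, so reads of the overlapping pair cannot be told apart. Usp29, a deubiquitinase gene read in the opposite direction from the same region, held 0.0920, 0.130 and 0.198 TPM in WT and at most 0.0708 TPM elsewhere. Zim1, the maternally expressed zinc finger gene of the domain, was listed at 0 in 18 of 21 libraries. Peg3, Usp29 and Zim1 had means below 1 TPM. In the fit without a filter, Peg3 was below WT in all 6 mutants (adjusted p from 4.51e-17 to 1.11e-16), with no fold given because most mutant libraries were at 0, and so was Usp29 (adjusted p from 0.000248 to 0.00811). Of the 11 tested genes within 1 Mb of Peg3, none fell in any mutant against WT, and none rose in E71K, E76K or E113Q, 1 in E76Q and 2 each in E71Q and E113K. Over all genes tested, 9.67% to 23.5% fell and 12.5% to 30.3% rose per mutant, so few of 11 would be called at those shares.

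In the Peg10-Sgce domain of chromosome 6, Sgce was below WT in the E71 and E76 mutants and above it in the E113 mutants. Sgce encodes epsilon-sarcoglycan, a membrane protein of the dystrophin-associated complex, is paternally expressed and lies at chr6:4674350-4747204. WT held 1.17, 1.12 and 1.71 TPM, and Sgce was listed at 0 in all 9 libraries of E71K, E71Q and E76Q. E76K held 0.203, 0.139 and 0.239 TPM. E113K held 2.92, 3.21 and 3.10 TPM and E113Q 8.32, 8.29 and 5.47 TPM. The libraries of the E71 and E76 mutants were all below WT, and those of the E113 mutants all above it. Sgce had a mean of 0.768 TPM outside E113Q, so it entered the filtered fit through that group. In the fit without a filter it rose by 0.81 ± 0.12 in E113K (adjusted p = 4.17e-05) and by 1.83 ± 0.12 in E113Q (adjusted p = 3.73e-09), and fell by 0.96 ± 0.12 in E76K (adjusted p = 9.17e-06). It also fell in E71K, E71Q and E76Q (adjusted p = 6.01e-07, 5.28e-07 and 5.88e-07), where no fold is given because it was listed at 0. E113K was below E113Q, with a log2 difference of -1.02 ± 0.12 (adjusted p = 1.41e-05).

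Peg10, a paternally expressed gene of retrotransposon origin whose start adjoins that of Sgce, held 1.05, 1.04 and 0.283 TPM in E113Q and at most 0.0775 TPM in any library of the 6 other groups. Asb4, a maternally expressed gene of the ankyrin repeat and SOCS box family at chr6:5383386-5433022, held 3.34, 2.95 and 2.73 TPM in WT and at most 0.320 TPM in a mutant library, E113Q replicate 2. Ppp1r9a, the maternally expressed gene of neurabin, did not exceed 0.0435 TPM. These 3 genes had means below 1 TPM. With no filter, Peg10 exceeded WT in E113Q by 0.73 ± 0.11 (adjusted p = 0.000162) and Asb4 was below WT in all 6 mutants (adjusted p from 3.11e-12 to 2.69e-11). The sum of 5 trophoblast markers, nearly all of it Prl3d1, moved with Asb4 and Peg3, at 13.3 to 17.2 TPM in WT and at most 0.578 TPM in a mutant library, while Cdx2 of the same list was at 0 throughout. Its part in the levels of these genes was not tested.

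Genes near Sgce were read beside it. Casd1, which acetylates sialic acid and lies 31.0 kb from Sgce, was at 2.35 ± 0.0691 TPM in WT, listed at 0 in E71K and E76Q, at 0.0116 ± 0.0202 in E71Q and 0.410 ± 0.0996 in E76K, and at 4.99 ± 0.278 in E113K and 3.76 ± 0.284 in E113Q. Casd1 thus passed the threshold in all 6 mutants in the same directions as Sgce, down in the E71 and E76 mutants and up in the E113 mutants. Col1a2, a collagen gene 133 kb from Sgce, had means of 2188 to 4609 TPM in the mutants against 1133 TPM in WT, so it was higher in groups where Sgce was listed at 0. Pon3, a paraoxonase gene of the same region, fell in all 6 mutants, from 5.93 ± 0.206 TPM in WT to between 0.0708 ± 0.0115 in E71Q and 2.49 ± 0.616 in E113Q. Of the 7 tested genes within 1 Mb of Sgce, 1 rose and 4 fell in E71K, and 2 and 4 in E71Q. In E76K 3 rose and 2 fell, in E76Q 2 and 5, in E113K 3 and 2, and in E113Q 2 and 2. Of all genes tested, 26.7%, 44.2%, 33.2%, 44.3%, 51% and 30.6% were called in these mutants, in that order.

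**Figure D4:**
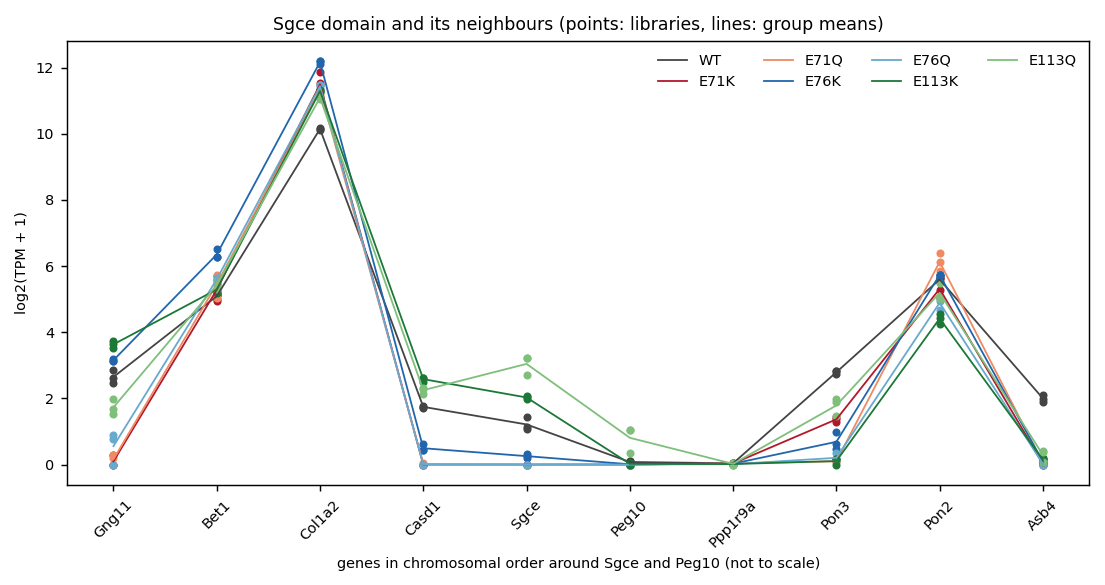
log2(TPM + 1) of genes in chromosomal order around Sgce and Peg10 (horizontal axis, spacing not to scale), with 1 point per library and lines through the group means of the 7 H2B groups. Sgce and Casd1 are at or near 0 in E71K, E71Q, E76K and E76Q and above WT in E113K and E113Q, while Col1a2 is above WT in every mutant.

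Plagl1 separated lysine from glutamine at all 3 residues. It encodes a zinc finger transcription factor, is paternally expressed and lies at chr10:13090832-13131694. WT held 4.04, 4.69 and 5.01 TPM. E71K held 7.19, 6.29 and 13.8 TPM, while E71Q held 0.0368, 0 and 0.0701 TPM. E76K held 9.56, 8.17 and 12.4 TPM and E76Q 4.18, 4.19 and 5.29 TPM. At each of these residues the 3 lysine libraries lay above the 3 glutamine libraries. E113K held 6.60, 7.18 and 5.45 TPM and E113Q 2.19, 2.25 and 0.702 TPM, again without overlap. The excess of lysine over glutamine was 3.21 ± 0.25 at E71 (adjusted p = 8.27e-08), 0.98 ± 0.25 at E76 (adjusted p = 0.00671) and 1.503 ± 0.25 at E113 (adjusted p = 0.000337). The difference at E71 exceeded that at E76 by 2.23 ± 0.36 and that at E113 by 1.71 ± 0.36 in the same fit (adjusted p = 0.00018 and 0.00159).

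Against WT, Plagl1 fell by 2.43 ± 0.25 in E71Q (adjusted p = 6.43e-07) and fell by 1.10 ± 0.25 in E113Q (adjusted p = 0.00319). It rose in E76K by 0.97 ± 0.25 (adjusted p = 0.00702) and in E71K by 0.79 ± 0.25 (adjusted p = 0.0274). The rise in E71K was lost without E71K replicate 3 (log2 fold change 0.47, adjusted p = 0.143), WT replicate 1 (0.72, adjusted p = 0.097) or WT replicate 2 (0.80, adjusted p = 0.0617). Its values in E113K and E76Q differed from WT by 0.41 ± 0.25 and -0.01 ± 0.25 (adjusted p = 0.189 and 0.992). None of the 9 tested genes within 1 Mb rose and 3 fell in E71Q, and in E71K 1 rose and none fell. In E76K 4 rose and 1 fell, in E76Q 1 and 4, in E113K 1 and 6, and in E113Q 1 and 2. Per mutant, 12.5% to 30.3% of all genes rose against WT and 9.67% to 23.5% fell. With lysine against glutamine at E71, 4 of the 9 were higher and none lower, where 12.8% of all genes were higher. At E76, 6 were higher and none lower, against 23.4% of all genes higher. At E113 none was higher and 4 were lower, against 13.3% of all genes lower. Any link of these genes to Plagl1 was not tested.

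Slc22a18 was the highest of the 4 genes of the set in the Kcnq1 domain of distal chromosome 7. It encodes a transporter-like membrane protein, is maternally expressed and lies at chr7:143473726-143499334. WT held 3.67, 3.70 and 3.33 TPM. E71K held 4.84, 3.82 and 11.3 TPM and E71Q 9.91, 12.1 and 12.4 TPM. Every library of these mutants was above the WT libraries, E71K replicate 2 by the least. E76K held 9.66, 11.8 and 16.4 TPM and E76Q 7.88, 8.43 and 7.34 TPM. E113K held 5.56, 4.80 and 5.54 TPM and E113Q 6.01, 4.97 and 9.32 TPM. All 18 mutant libraries thus lay above the 3 WT libraries. The rise passed the threshold in E71Q (1.45 ± 0.27, adjusted p = 0.000333), E76K (1.55 ± 0.27, adjusted p = 0.000245), E76Q (0.96 ± 0.27, adjusted p = 0.00766) and E113Q (0.73 ± 0.27, adjusted p = 0.0466). The E113Q call was lost in 17 of the 32 other settings, with the largest p without E113Q replicate 3 (0.50, adjusted p = 0.206), and without each of the WT libraries (adjusted p from 0.0893 to 0.119). In E71K and E113K the differences were 0.62 ± 0.27 and 0.46 ± 0.27 (adjusted p = 0.0974 and 0.156). That in E71K passed with median-ratio rescaling (adjusted p = 0.0398), without Mir6236 (0.0225) and without E71K replicate 2 (0.0161). That in E113K passed with only the libraries compared (adjusted p = 0.00227), without the 4 libraries left out together (0.00129) and without E71K replicate 3 (0.0419).

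Kcnq1ot1, the paternally expressed noncoding RNA that silences the domain on its own chromosome, lay at 0.774 to 1.23 TPM over the 21 libraries. In the filtered limma fit it passed the threshold in none of the 9 comparisons, with no unadjusted p under 0.05. The largest difference was 0.24 ± 0.14 between E76K and E76Q (adjusted p = 0.206). The limma fit without a filter, which also made no call, gave it 0.24 ± 0.09 (unadjusted p = 0.016, adjusted p = 0.064). It runs antisense to Kcnq1, and strand was not given. Cdkn1c, the gene of the cell cycle inhibitor p57, did not exceed 0.240 TPM and was listed at 0 in 16 libraries. Phlda2, a maternally expressed gene that limits placental growth, was listed at 0 in every library but E76K replicate 1, where it was at 0.200 TPM.

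Impact, the paternally expressed gene of an inhibitor of the kinase GCN2 on chromosome 18, was highest with the substitutions at E113. WT held 31.7, 32 and 31.1 TPM, and E71K held 30.3, 21.5 and 36.9 TPM, which spans WT. E71Q held 52.4, 58.9 and 63.2 TPM. E76K held 37.4, 36.5 and 46.2 TPM and E76Q 46, 49.8 and 49.5 TPM. These groups all lay above WT without overlap. E113K held 98.8, 111 and 111 TPM and E113Q 71.8, 75.3 and 69.5 TPM, above all other groups and apart from each other. Impact rose by 1.73 ± 0.14 in E113K, 1.17 ± 0.14 in E113Q, 0.86 ± 0.14 in E71Q and 0.60 ± 0.14 in E76Q (adjusted p from 4.21e-08 to 0.00281). In E76K and E71K the differences were 0.33 ± 0.14 and -0.13 ± 0.14 (adjusted p = 0.0914 and 0.566). Lysine exceeded glutamine at E113 by 0.56 ± 0.14 (adjusted p = 0.00781) and was below it at E71, with a difference of -0.98 ± 0.14 (adjusted p = 0.000118), and these differences were themselves unlike, by -1.54 ± 0.20 for E71 minus E113 (adjusted p = 3.35e-05). The call between E71K and E71Q was lost in a fit of only their 6 libraries (adjusted p = 0.0553).

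Zrsr1 and Mcts2 are paternally expressed retrogenes, copies of the X-linked splicing factor gene Zrsr2 and of Mcts1, and reads of a copy and its parent may be shared. Zrsr1 held 27.8, 29.9 and 25.6 TPM in WT and 29.9, 26.2 and 38.3 TPM in E71K. It held 39, 44.5 and 43.4 TPM in E71Q, 38.1, 39.6 and 41.3 in E76K and 42, 39.7 and 41.5 in E76Q. It held 47, 39.8 and 44.6 TPM in E113K and 39.3, 45.4 and 44.7 in E113Q. Zrsr1 was above every WT library in all mutant libraries but E71K replicate 2, with E71K replicate 1 level with the highest WT library. It rose in the 5 mutants other than E71K by 0.50 to 0.64 on the log2 scale (adjusted p from 0.000271 to 0.00359). In E71K the difference was 0.16 ± 0.12 (adjusted p = 0.357). Its parent Zrsr2 passed the threshold only in E76K (0.42 ± 0.13, adjusted p = 0.0239). Mcts2 ran from 24.9 to 44.0 TPM and passed only in E76K (0.45 ± 0.17, adjusted p = 0.0462), a call that was lost in 16 settings, with median-ratio rescaling (0.29, adjusted p = 0.0717) and without any of the WT or E76K libraries. Its parent Mcts1 differed by 0.39 ± 0.16 in E76K (adjusted p = 0.0752).

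Gnas, the gene of the stimulatory G protein alpha subunit, was the most abundant of the set, at 783 to 1577 TPM. Its locus gives several transcripts with different parental expression, which a value per gene sums. It passed the threshold against WT in no mutant, and the differences lay between -0.32 ± 0.12 in E71K (adjusted p = 0.0612) and 0.26 ± 0.12 in E113K (adjusted p = 0.0842). That depended on the scaling: with median-ratio rescaling Gnas was lower than WT in E71K (-0.30, adjusted p = 0.000134), E76K (-0.36, adjusted p = 2.13e-05) and E113Q (-0.15, adjusted p = 0.0225) and higher in E71Q (0.21, adjusted p = 0.0023) and E113K (0.12, adjusted p = 0.0474). Gnas was lower in E71K than in E71Q, with a log2 difference of -0.52 ± 0.12 (adjusted p = 0.00506), with libraries at 1063, 783 and 1259 and 1317, 1487 and 1577 TPM, and this call was lost in a fit of only those 6 libraries (adjusted p = 0.247). It was higher in E113K than in E113Q by 0.34 ± 0.12 (adjusted p = 0.0429), with libraries at 1514, 1504 and 1518 and 1221, 1211 and 1150.3 TPM. That call was lost in 17 settings, among them without any 1 of these 6 libraries (adjusted p from 0.0799 to 0.103).

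Blcap, a gene that is maternally expressed in brain, hosts the paternally expressed Nnat within its bounds on chromosome 2. Blcap held 34.4, 34.1 and 38.3 TPM in WT and 24.4, 17 and 27.3 TPM in E71K, where it fell by 0.64 ± 0.15 (adjusted p = 0.00324) with all 3 libraries below WT. It held 27.2, 32.7 and 33 TPM in E71Q, 43.2, 42.1 and 44.4 in E76K and 32, 34 and 33.4 in E76Q. It held 43.3, 44.8 and 44.8 TPM in E113K and 35.5, 31.2 and 24.3 in E113Q, and E113K exceeded E113Q by 0.55 ± 0.15 (adjusted p = 0.0101). The fall in E71K was lost in a fit of only the 6 libraries compared (adjusted p = 0.0846), and the E113 call without E113Q replicate 3 (0.0521). E71K was also below E71Q, with a difference of -0.44 ± 0.15 (adjusted p = 0.0374), a call that was lost without E71K replicate 1 (0.053) or 2 (0.143) or E71Q replicate 2 (0.122) or 3 (0.114). Nnat, the gene of neuronatin, did not exceed 0.780 TPM.

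The Dlk1-Dio3 domain of chromosome 12 was low throughout, and its maternally expressed noncoding RNAs Meg3 and Rian were highest with the substitutions at E113. Meg3 held 0.355, 0.535 and 0.534 TPM in E113K and 0.0119, 0.400 and 0.146 TPM in E113Q, and at most 0.0357 TPM in any other library. Rian, a host of small nucleolar RNAs, held 1.59, 0.305 and 0.454 TPM in E113K and 0.224, 0.289 and 1.52 TPM in E113Q, and at most 0.152 TPM elsewhere. Mirg, a host of microRNAs, held 0.666, 0.575 and 0.143 TPM in E113Q, 0.143, 0.151 and 0.0901 TPM in E113K and 0.342, 0.112 and 0.205 TPM in WT, and was listed at 0 in all E71Q libraries. The paternally expressed Dlk1, whose product is an inhibitor of adipogenesis, did not exceed 0.0444 TPM, and Rtl1, a gene of retrotransposon origin, reached 0.542 TPM in E71K replicate 3. None of the 5 had a mean of 1 TPM. Fitted without a filter, Meg3 exceeded WT in E113K by 0.54 ± 0.08 (adjusted p = 4.06e-05) and Rian by 0.72 ± 0.23 (adjusted p = 0.0211), while in E113Q they differed by 0.22 ± 0.08 and 0.62 ± 0.23 (adjusted p = 0.0517 and 0.063). Mirg passed there between E113K and E113Q alone (-0.35 ± 0.11, adjusted p = 0.0366).

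The other members of the set were close to 0. Mest, a paternally expressed gene of the hydrolase family, reached 0.348 TPM, and Rasgrf1, a Ras exchange factor gene, 0.180 TPM. Without a filter Rasgrf1 exceeded WT in E76Q by 0.17 ± 0.06 (adjusted p = 0.0303). Nap1l5, a nucleosome assembly protein gene, reached 0.0814 TPM and Zdbf2 0.0100 TPM, and they were listed at 0 in 18 and 16 of the 21 libraries.

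Across the set, calls went in both directions in every mutant but E113K. In E71K 4 of the 15 tested genes rose (Grb10, Ndn, Plagl1 and Peg12) and 2 fell (Sgce and Blcap), against 26.7% of all 12192 genes called in that comparison. In E71Q 5 rose (Grb10, Impact, Slc22a18, Zrsr1 and Peg12) and 2 fell (Sgce and Plagl1), against 44.2% of all genes. In E76K 7 rose (Grb10, Slc22a18, Zrsr1, Ube3a, Plagl1, Peg12 and Mcts2) and Sgce fell, against 33.2% called in either direction, 23.5% risen and 9.67% fallen. In E76Q 7 rose (Grb10, Impact, Ndn, Slc22a18, Zrsr1, Peg12 and Airn) and Sgce fell, against 44.3%. In E113K 5 rose (Grb10, Impact, Sgce, Zrsr1 and Airn) and none fell, against 51% called in either direction, 30.3% risen and 20.7% fallen. In E113Q 5 rose (Grb10, Impact, Slc22a18, Sgce and Zrsr1) and Plagl1 fell, against 30.6%. The call of Ndn in E71K and that of Sgce in E113Q were built into the filter and count for nothing against these shares. No test of the set against other genes was made.

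Some of these counts rest on few libraries. E71K replicate 3, E71Q replicate 1, E76K replicate 3 and E113Q replicate 3 were also left out together. The count was then 10 in E71K and 11 in E113K, in place of 6 and 5. The share of all genes called rose with it, to 40.6% in E71K and 64.6% in E113K. Both counts include Peg3, which reached a mean of 1 TPM in that fit only through WT. Its calls there were built into the filter and count for nothing against these shares. The median log2 fold change of the 15 genes against that of all genes was 0.13 against 0 in E71K, 0.11 against 0 in E71Q, 0.45 against 0.16 in E76K, 0.15 against 0.02 in E76Q, 0.31 against 0.13 in E113K and 0.04 against 0.06 in E113Q. A median-ratio rescaling of the libraries moved the log2 ratio of TPM to WT by -0.163 in E76K and -0.137 in E113K and by less than 0.1 in the other mutants, with a smaller move on the log2(TPM + 1) scale for low genes. It reversed none of the calls and added 12 against WT, 5 of them of Gnas, 3 of Blcap, 2 of Igf2r and 1 each of Slc22a18 and Peg12.

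By expressed parental copy, the calls against WT were mixed. The class is that known for each gene and was not measured in these cells. Ube3a and Blcap are maternally expressed in neurons or brain, and Gnas sums transcripts of different parental expression. Of the 6 tested maternally expressed genes, Grb10 rose in 6 mutants, Slc22a18 in 4 and Ube3a in 1, Blcap fell in 1, and Igf2r and Gnas were called in none before rescaling. Of the 9 paternally expressed genes, Zrsr1 rose in 5 mutants, Impact and Peg12 in 4 each, Airn and Ndn in 2 each and Mcts2 in 1, Plagl1 and Sgce rose in 2 each and fell in 2 and 4, and Kcnq1ot1 was called in none. Per mutant, 1 to 3 maternally expressed genes rose and at most 1 fell, and 3 to 5 paternally expressed genes rose and at most 2 fell. Over all genes, 12.5% to 30.3% rose and 9.67% to 23.5% fell per mutant. Maternally and paternally expressed genes were not tested against each other. In the domains with more than 1 tested gene, calls were partly shared between the genes. Airn and Igf2r were called in opposite directions between E113K and E113Q, and Slc22a18 was called without Kcnq1ot1. Against WT, Ndn and Peg12 rose together only in E71K and E76Q, and Ube3a of the same domain rose together with Peg12 only in E76K.

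**Figure D5:**
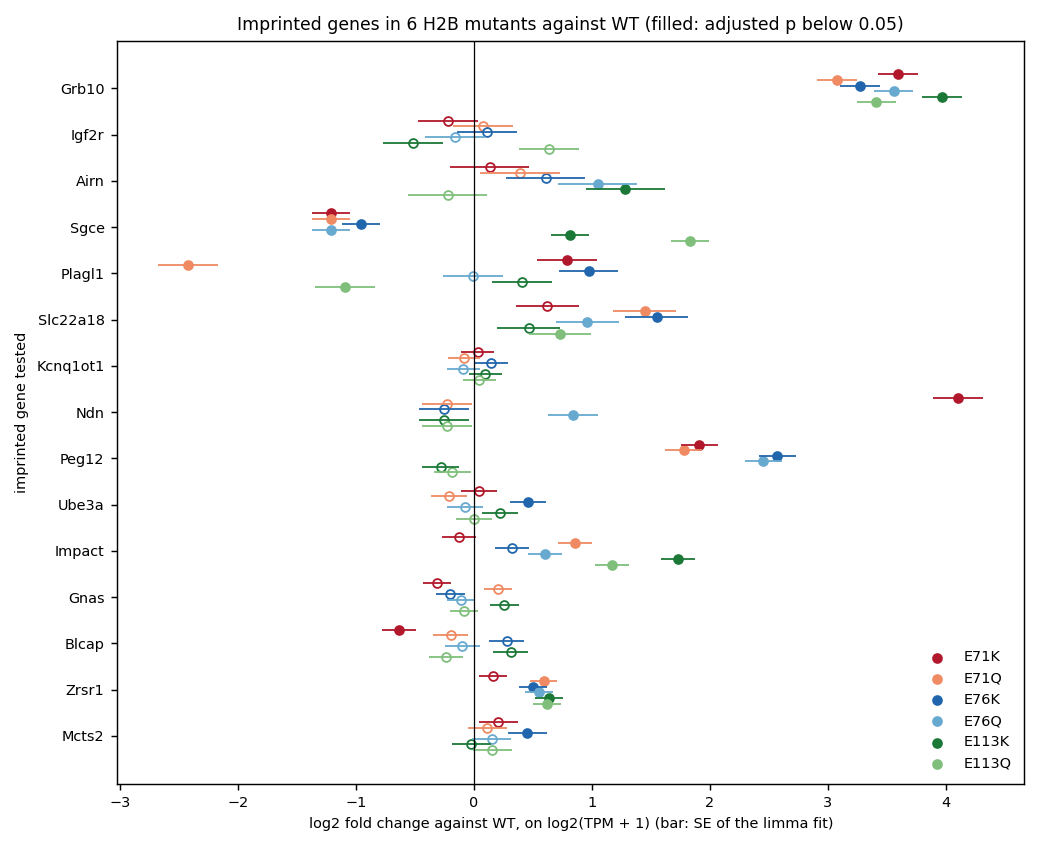
log2 fold change against WT on the log2(TPM + 1) scale (horizontal axis) of the 15 tested imprinted genes (vertical axis) in 6 H2B mutants, with bars for the SE of the filtered limma fit and filled points for an adjusted p below 0.05. Grb10 lies between 3.08 and 3.97 in all 6 mutants, Ndn reaches 4.11 in E71K, and Plagl1 and Sgce have filled points on both sides of 0.

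Between the mutants, which do not share the WT libraries in these contrasts, 13 of the 15 genes differed in an F test over the 6 mutants, against 69.1% of all genes, and 13 differed over the 7 groups, against 77.1%. The exceptions over the mutants were Kcnq1ot1 (adjusted p = 0.50) and Mcts2 (adjusted p = 0.21). With lysine in place of glutamine at E71, 3 genes were higher (Grb10, Ndn and Plagl1) and 5 lower (Gnas, Impact, Slc22a18, Zrsr1 and Blcap), against 25.1% of all genes called. In a fit of only the 6 libraries of E71K and E71Q, 2 of 13 genes passed, Ndn and Plagl1, against 4.81% of all genes. In that fit both genes reached a mean of 1 TPM only through E71K, as their E71Q means were 0.0211 and 0.0356 TPM. That count therefore says nothing against that share. In the fit of all groups, the count at E71 was 5 without E71K replicate 1 (15.5% of all genes) and 4 without E71Q replicate 2 (14.7%). At E76, Ube3a and Plagl1 were higher with lysine and Ndn was lower, against 31.9% of all genes (8.46% lower). The call of Ndn was lost with a pseudocount of 5 (-0.30, adjusted p = 0.0918). The count at E76 was 8 without the 4 libraries named above, where 49.4% of all genes were called. It was 5 without E71K replicate 2 (39.5%) or 3 (38.1%). At E113, 6 were higher with lysine (Gnas, Grb10, Impact, Plagl1, Blcap and Airn) and 2 lower (Igf2r and Sgce), against 28% of all genes. Plagl1 was the only gene called in all 3, each time higher with lysine. The calls of Ndn and Sgce in the F tests, of Ndn at E71 and of Sgce at E113 were built into the filter. They count for nothing against these shares.

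Further imprinted genes and the machinery that keeps imprints were read from separate lists. Of 40 further imprinted genes, 39 were in the table and 20 were tested. In E71K 4 rose and 5 fell, in E71Q 7 and 3, in E76K 5 and 3, in E76Q 5 and 7, in E113K 5 and 5, and in E113Q 4 and 3. Of all genes tested, 26.7%, 44.2%, 33.2%, 44.3%, 51% and 30.6% were called in these mutants, in that order. The list was not tested as a set. Its largest changes were those of Dcn, Peg13, Pon3 and Casd1. Dcn, the gene of the matrix proteoglycan decorin, rose in E71Q from 41.3 ± 3.02 to 384 ± 142 TPM (3.11 ± 0.40, adjusted p = 8.29e-06) and fell in E76K to 12.5 ± 7.74 TPM (-1.79 ± 0.40, adjusted p = 0.00239). Peg13, a paternally expressed noncoding RNA, rose in all 6 mutants, like Grb10, from 1.57 ± 0.0696 TPM in WT to between 6.46 ± 0.289 TPM in E76Q and 21.1 ± 2.17 TPM in E76K (3.10 ± 0.17, adjusted p = 2.66e-10). Pon3 and Casd1, near Sgce, are given above.

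Of 25 genes that set or keep imprints, 22 were tested. In E71K 2 rose and 1 fell, in E71Q 2 and 8, in E76K 2 and 3, in E76Q 4 and 8, in E113K 8 and 8, and in E113Q 1 and 6. Of all genes tested, 26.7%, 44.2%, 33.2%, 44.3%, 51% and 30.6% were called in these mutants, in that order. The list was not tested as a set. The median log2 fold change of the 22 ran from -0.18 in E71Q, where that of all genes was 0, to 0.11 in E113K. There that of all genes was 0.13. Zfp57, whose product binds methylated imprinting control regions, fell in all 6 mutants, from 10.7 ± 0.528 TPM in WT to between 2.80 ± 0.103 TPM in E113Q (-1.63 ± 0.15, adjusted p = 1.79e-07) and 7.39 ± 1.39 TPM in E113K (-0.50 ± 0.15, adjusted p = 0.0103). Uhrf1, which brings DNMT1 to newly made DNA, fell in E113K from 87.1 ± 2.33 to 16 ± 1.12 TPM (-2.38 ± 0.30, adjusted p = 5.85e-06), and also in E71Q, E76Q and E113Q. Hells, a chromatin remodeler needed for DNA methylation, fell in the same 4 mutants, in E113K from 60.3 ± 4.71 to 9.30 ± 0.919 TPM (-2.57 ± 0.33, adjusted p = 6.7e-06). Dnmt1 itself fell in these 4 as well, in E113K from 56.8 ± 3.33 to 22.1 ± 0.844 TPM (-1.32 ± 0.22, adjusted p = 0.000111). No DNA methylation was measured here.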

How the data were processed

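RNA of C3H/10T1/2 cells with wild-type or substituted H2B was measured in 7 groups of 3 libraries, grouped by the genotype in the labels. The deposited values are TPM per gene and library, made by the authors; per the labels' protocols, the RNA came from an RNeasy Mini Kit and the libraries from NEBNext Ultra II. The submitters' processing notes name Salmon, featureCounts 1.4.4, DESeq and the build mm10, without their roles. Selection by poly(A), strand and read depth are not given in the sources used here. Each library summed to between 999897 and 999931 TPM. TPM is no count, so no count test was run, and depth cannot set the precision of a value.

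From these values log2(TPM + 1) was computed, and limma 3.58.1 (R 4.3.3) was fitted to all 21 libraries with the group as the only term, for the 12192 genes averaging 1 TPM or more. Variances were moderated with a trend over intensity, with 14 degrees of freedom left and 3.19 added by the prior. The contrasts were 6 of a mutant with WT, 3 of lysine with glutamine at a residue, 3 differences of those between residues, and F tests over 6 mutants and over 7 groups. P-values were adjusted by Benjamini-Hochberg over all genes of a contrast, and an adjusted p below 0.05 is a call. An error is the SD of 3 libraries beside a TPM mean and the SE of the fit beside a log2 value. The fit was tested on simulated data. Values of the 23 members under 1 TPM, and of Ndn and Sgce, which passed the filter through 1 group, come from the alternative without a filter, a use chosen after the data were seen. Kcnq1ot1, which also passed it through 1 group, is given from both fits.

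The members and lists were chosen with earlier results of these data known. All 38 members are named, the 12 tested members with the widest range of group means with the values of each library, and of each list the 4 called genes with the largest change. Genes within 1 Mb, parent genes of the retrogenes and the differences between residues were added after the data were seen. Positions and promoters are from RefSeq on GRCm38.p6, and chromosome 18 promoters were not used. Alternatives were pseudocounts of 0.1 and 5, no filter or a mean of at least 5 TPM, median-ratio rescaling, quantile normalization, Mir6236 left out, no trend, a replicate block, only the libraries compared, 4 libraries left out together, and each library left out in turn. Replicate numbers did not pair the libraries, since 13 of 63 same-numbered pairs had a correlation of deviations over 0.1.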

Additional observations from a re-analysis of the deposited data

Results flagged for a closer look

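The lysine minus glutamine difference of a gene was compared between residues in the limma fit, with 3 such tests for each of the 15 genes. Of the 36 tests of 12 genes, 15 passed an adjusted p of 0.05, for 9 genes, while 21.7% of all genes passed between E71 and E76, 32.7% between E71 and E113 and 29.5% between E76 and E113, so the share of imprinted genes is read against those. Ndn, Sgce and Kcnq1ot1 reached the mean of 1 TPM only through 1 group. The 5 values of Ndn and Sgce given here come from the fit without a filter. Apart from that of Ndn between E76 and E113, which uses no E71K library, they describe that same difference between groups. All values are log2 differences of differences (SE) on the log2(TPM + 1) scale, with p adjusted over all genes tested.

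Between E71 and E76, the difference was larger at E71 for Ndn by 5.43 ± 0.25 (adjusted p = 1.7e-10), Plagl1 by 2.23 ± 0.36 (adjusted p = 0.00018) and Grb10 by 0.80 ± 0.24 (adjusted p = 0.0221). It was smaller or more negative for Slc22a18, at -1.41 ± 0.38 (adjusted p = 0.0117), Blcap, at -0.81 ± 0.21 (adjusted p = 0.00889), and Impact, at -0.71 ± 0.20 (adjusted p = 0.0184).

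Between E71 and E113, the value was 4.36 ± 0.25 for Ndn (adjusted p = 8.85e-09), 1.71 ± 0.36 for Plagl1 (adjusted p = 0.00159) and 1.02 ± 0.16 for Sgce (adjusted p = 0.000388). It was -1.76 ± 0.48 for Airn (adjusted p = 0.00898), -1.54 ± 0.20 for Impact (adjusted p = 3.35e-05), -0.99 ± 0.21 for Blcap (adjusted p = 0.00168), -0.86 ± 0.17 for Gnas (adjusted p = 0.00103) and -0.45 ± 0.17 for Zrsr1 (adjusted p = 0.0451).

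Between E76 and E113, Igf2r gave 1.43 ± 0.36 (adjusted p = 0.00632) and Airn, which overlaps it, -1.95 ± 0.48 (adjusted p = 0.00509). Sgce gave 1.27 ± 0.16 (adjusted p = 3.62e-05), Ndn -1.07 ± 0.25 (adjusted p = 0.0064), Grb10 -0.84 ± 0.24 (adjusted p = 0.0133) and Impact -0.84 ± 0.20 (adjusted p = 0.00504). The values of Sgce and Ndn include groups listed at 0, so their size depends on the pseudocount. Peg12, with large rises at E71 and E76 and none at E113, passed in none of these 3 tests.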

How the results depend on the processing

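Of the 59 calls of imprinted genes over the 9 comparisons of 2 groups, 41 held in every setting that gave a value and 18 were lost in at least 1 of the 32 other settings; no call changed sign. Counts of genes called against WT moved with the filter, and are given here with the share of all genes called. Without it, all 38 members were tested, with low genes such as Peg3 and Asb4 included. The counts were then 11 in E71K (21%), 11 in E71Q (31.6%), 13 in E76Q (31.4%), 12 in E113K (35.9%) and 10 in E113Q (23.1%). Among the 6 mutants 23 differed (49.5%), and among the 7 groups 25 (57.3%). At a mean of at least 5 TPM, with fewer genes tested, the counts were 3 in E71K (24.7%) and 5 in E76Q (44.3%). For the other changes of count, apart from genes that newly passed the filter, the cause was not tested. In E113K the count was 9 with median-ratio rescaling, 8 without Mir6236 and 12 with only the libraries compared. Without the 4 libraries named in the report it was 11 in E113K and 10 in E71K. The count of 12 includes Peg3 and Asb4, which passed the filter there only through WT. Peg3 passed it in that way without the 4 libraries too, and is in both of those counts. These calls were built into the filter. The share of all genes called moved too. In E113K it went from 51% to 62.2% with rescaling, 61.5% without Mir6236, 74% with only the libraries compared and 64.6% without the 4. In E71K it went from 26.7% to 40.6% without the 4. Between E76K and E76Q the count was 7 with median-ratio rescaling (43% of all genes), with quantile normalization (44.1%) or without Mir6236 (41.3%). It was 5 with only the libraries compared (46.5%) and 8 without the 4 libraries (49.4% in place of 31.9%). Between E71K and E71Q the count was 2 with only the libraries compared (4.81%), both of genes that passed the filter there only through E71K. Leaving out each library in turn gave 5 to 8 in E113K (8 without E71K replicate 3), 4 to 8 between E71K and E71Q and 2 to 5 between E76K and E76Q. In those fits the shares of all genes were 42.7% to 57.9%, 14.7% to 38.5% and 22.9% to 39.5%. Over all genes, the 3250 calls of E71K against WT became 5142 with median-ratio rescaling and 1643 with only the libraries compared, and the 3060 between E71K and E71Q became 5261 and 565. Median-ratio rescaling added 12 calls against WT: Gnas in E71K (-0.30), E71Q (0.21), E76K (-0.36), E113K (0.12) and E113Q (-0.15), Blcap in E71Q (-0.20), E113K (0.18) and E113Q (-0.30), Igf2r in E113K (-0.65) and E113Q (0.57), Slc22a18 in E71K (0.63) and Peg12 in E113K (-0.31). It added 5 between lysine and glutamine. Leaving out Mir6236 added 12 and 4, quantile normalization 8 and 5, only the libraries compared 10 and 3, and leaving out the 4 libraries 11 and 7. The replicate block lost no call and added Igf2r in E113Q (0.64, adjusted p = 0.032); the numbers share only a label, and 7 of 21 libraries correlated best with their own number. TPM holds no depth, so a value near 0 cannot be told from one not detected.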

Other observations

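Members near the level asked for a test were decided by few libraries. Ndn had a mean of 0.233 TPM outside E71K, Sgce 0.768 TPM outside E113Q and Kcnq1ot1 0.999 TPM outside E76K, just under the 1 TPM that its full mean passed, while Peg3, at a mean of 0.825 TPM over all libraries, was the nearest below it.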
